A study of Mus musculus with 94 samples.

Results

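Medullary and cortical tubular cells were compared in kidneys collected 14 days after unilateral renal ischemia-reperfusion injury (IRI) from vehicle-treated mice. The samples were chosen by their titles, which give the vehicle arm on day 14, the PanCK segment, and the region. This selected 8 of the 94 deposited segments, 4 from the medulla and 4 from the cortex, with 2 of each in each of 2 kidney sections. No measured value entered this choice. The mice were C57BL/6 males that received vehicle before the injury, with different lead times in the labels and in the methods. The study describes further injections after the injury until day 14, named in its methods for entospletinib. The labels give neither their age nor any altered allele. Digital spatial profiling on the GeoMx platform was used, which cuts barcodes off the probes of a mouse whole transcriptome set with UV light within an outlined area and reads them on a sequencer. The whole series holds 48 tubular and 46 macrophage segments from 14 sections in 7 arms, which are uninjured control kidneys and injured kidneys taken 1, 7, or 14 days later with vehicle or with entospletinib, an inhibitor of the kinase SYK. Control segments carry no treatment in their labels, and the methods allow either the untouched contralateral kidney or a kidney of a healthy mouse. Entospletinib-treated mice received the same injury, with the drug before it and, by the methods, up to day 14.

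The renal cortex holds the glomeruli and most of the proximal tubule, the segment that reabsorbs the bulk of the filtered solutes. The medulla holds the loops of Henle and collecting ducts, and its outer stripe holds the straight end of the proximal tubule. The outer medulla works at low oxygen tension and is known for its vulnerability to ischemia, and proximal tubular cells that fail to repair lose transport genes while injury genes remain on. Regions had been picked by eye from stained slides, glomeruli were avoided, and the outer medullary stripe was counted as medulla. A tubular segment is the PanCK-stained area of such a region, with or without CD10, a brush border marker of the proximal tubule. The mix of tubule types can therefore differ between the regions compared, and in areas of many cells fewer cells of a type and less RNA per cell cannot be told apart.

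The files hold identifiers of 20175 probes and do not pair these with genes. Values are therefore given per probe, the labelled tubular identity could not be checked against marker genes, and no sequence is shown. In section 1 the cortical regions of interest (ROIs) 13 and 16 held 2355614 and 3218840 counts, and the medullary ROIs 14 and 15 held 588814 and 4812779 counts. In section 2 the cortical ROIs 16 and 19 held 3079326 and 3169574 counts, and the medullary ROIs 17 and 18 held 4446048 and 6418303 counts. Medullary ROI 14 was thus the shallowest of the 8, with a median of 16.0 counts per probe against 59.0 to 145.0 in the others. Across probes its log2 values correlated at 0.877 to 0.907 with those of the other 7 segments. Pairs without ROI 14 correlated at 0.878 to 0.975, so values about this low also occurred between other segments. The deepest pair of medullary segments, ROI 15 of section 1 and ROI 18 of section 2, correlated at 0.968, and the cortical pairs within sections 1 and 2 at 0.971 and 0.975. Tubular segments of the whole series held 77621 to 11699181 counts.

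Counts of the ROIs of a section were summed per region, so that medulla and cortex were compared within a section and the section was the replicate (n = 2). In the vehicle-treated kidneys on day 14, the medulla exceeded the cortex for 147 probes and the cortex exceeded the medulla for 139. These 286 probes were 1.42% of the 20175 tested, split into 0.729% with the medulla and 0.689% with the cortex higher. A probe is referred to as called where the quasi-likelihood test of edgeR gave a Benjamini-Hochberg adjusted p under 0.05 and the log2 fold change exceeded 1 in either direction. The median log2 fold change of medulla over cortex was 1.33 for the former and -1.30 for the latter, against 0.07 over all probes. Fold changes over 2 on the log2 scale were found in 17 of the 147 and in 16 of the 139, and the extremes among called probes were 3.41 and -3.84.

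The 2 sets of probes lay at different levels. Ranked by mean level over all tubular sums, the probes higher in the medulla had a median percentile of 42.8 and those higher in the cortex a median percentile of 95.9. In the medulla and cortex of the vehicle day 14 sections, the former had a median CPM of 66.0 and 24.5, where CPM is the usual rate of counts but over upper-quartile-scaled library totals. The latter had a median of 48.9 and 129.0 CPM in the same order, and the median over all probes was 22.3 and 21.4 CPM. Of the 139 probes higher in the cortex, 101 were among the 2018 probes in the top 10% of levels, which held 2 of the 147. Probes higher in the medulla thus reached a level above that of most probes in the medulla while they stood near the median probe in the cortex. The level of the negative probes, which give the background of the assay, could not be read without a probe table, so a true level near that of the median probe was not told apart from background.

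Both sections gave the same direction for all 286 called probes, which the test favors by its construction. The median difference of the probes higher in the medulla was 1.64 in section 1 and 1.13 in section 2, and that of the probes higher in the cortex was -1.72 and -0.91. The difference was larger in section 1 for 112 of the 147 and for 126 of the 139. Over all 20175 probes, the differences of the 2 sections correlated at r = 0.526 across probes, which are not independent replicates.

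**Figure D1:**
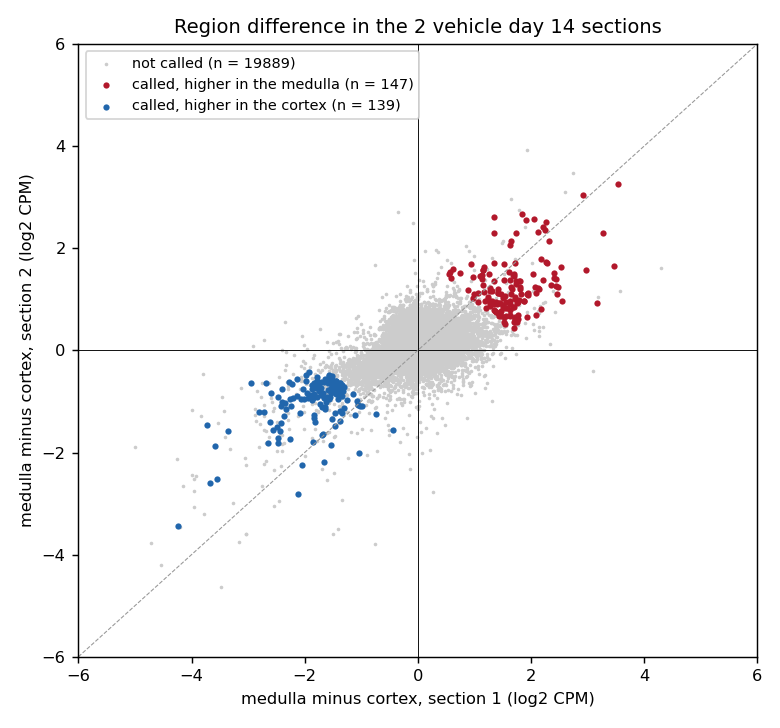
Medulla minus cortex (log2 CPM with a prior count of 2) of each probe in section 1 on the horizontal and section 2 on the vertical axis, for vehicle day 14 tubules. Grey points are probes not called, red points the 147 called higher in the medulla, blue points the 139 called higher in the cortex, and the dashed line marks equal differences. Most blue points lie above and most red points below the dashed line, so that the differences were larger in section 1.

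The 2 medullary segments of a section did not carry the difference equally. Against the mean of the cortical segments of its own section, ROI 15 was higher by a median of 1.72 on the log2 scale for the 147 probes and ROI 14 by 0.57. In section 2, the same medians were 1.29 for ROI 18 and 0.82 for ROI 17. For the 139 probes higher in the cortex the medians were -1.88 in ROI 15, -0.60 in ROI 14, -1.28 in ROI 18, and -0.48 in ROI 17. In each section the deeper medullary segment stood farther from the cortex, while the 2 cortical segments of a section differed by medians of at most 0.37 in either set. The probes were called on sums of these same segments, in which a segment weighs by its counts. The larger gap of the deeper segment is thus favored by construction.

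As a share of all counts, the 147 probes took 1.85% in ROI 15, 0.759% in ROI 14, 1.73% in ROI 18, and 1.16% in ROI 17. In the cortical segments their share was 0.531% and 0.386% in section 1 and 0.614% and 0.647% in section 2. All 4 medullary segments lay above all 4 cortical segments, which the choice of the probes in these same segments favors. The 139 probes took 5.32% and 5.41% of the cortical counts in section 1 and 3.54% and 4.14% in section 2. In the medulla they took 2.80% in ROI 14, 0.853% in ROI 15, 2.05% in ROI 17, and 1.27% in ROI 18, all below the cortex. This order is favored in the same way.

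**Figure D2:**
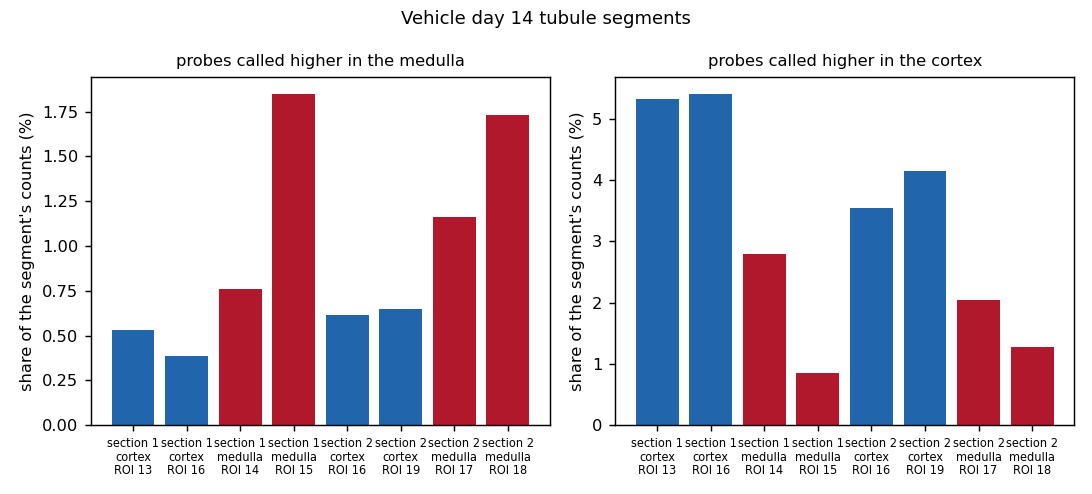
Share of a segment's counts (%) that came from the probes called with the medulla (left) or the cortex (right) higher, for the 8 vehicle day 14 tubule segments. Each bar is 1 segment, red for medulla and blue for cortex. Medullary ROIs 15 and 18 stand farthest from the cortical bars in both panels, and ROI 14 is nearest to them. The same segments chose these probes.

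Probe by probe, the 4 medullary segments lay above the 4 cortical segments for 607 probes, or 3.01% of those tested, and below them for 617, or 3.06%. Among called probes this held for 73 of the 147 and 58 of the 139, a description since the same segments chose them. The median log2 fold change without ROI 15 was 1.00 for the 147 and -0.80 for the 139. Without the shallow ROI 14 the number of called probes was 310, of which 281 were among the 286. Without ROI 15 this number was 72 (48 higher in the medulla and 24 in the cortex) with 57 among the 286. Without ROI 18 it was 113 (77 and 36) with 103 among the 286. Without section 1 it was 80 (65 and 15) and without section 2 it was 581 (304 and 277), with the remaining sum assumed to vary like those of the other arms.

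The probes named below are the 2 with the smallest adjusted p in each direction among the called probes whose segments did not overlap between regions. RTS0081452 had the largest called difference in favor of the medulla. Its level was 93.1, 452, 215, and 401 CPM in medullary ROIs 14, 15, 17, and 18, and 51.0, 23.4, 26.7, and 40.4 CPM in the cortical segments of sections 1 and 2. Every medullary segment was above every cortical segment, with ROI 14 less than 2 times above the highest of them. The sums gave 367 ± 62.4 CPM in the medulla and 34.3 ± 1.31 CPM in the cortex (SD, n = 2 sections), a log2 fold change of 3.41 (SE 0.18, adjusted p = 2.71e-09 in edgeR).

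RTS0070823 was at 18.3, 61.7, 37.5, and 70.3 CPM in the medullary segments in the same order, and at 15.0, 9.20, 11.3, and 8.21 CPM in the cortical ones. The lowest medullary value, again in ROI 14, came from 12 counts and was close to the highest cortical value. The sums gave 56.8 ± 0.151 CPM in the medulla and 10.7 ± 1.38 CPM in the cortex (SD, n = 2 sections), a log2 fold change of 2.41 (SE 0.18, adjusted p = 3.56e-07 in edgeR).

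In the other direction, RTS0064004 was at 83.1, 78.9, 62.6, and 82.4 CPM in the cortical segments and at 39.7, 17.1, 14.6, and 15.7 CPM in the medullary ROIs 14, 15, 17, and 18. ROI 14 lay between the cortical segments and the other 3 medullary segments. The sums gave 76.3 ± 5.99 CPM in the cortex and 17.2 ± 3.01 CPM in the medulla (SD, n = 2 sections), a log2 fold change of -2.16 (SE 0.22, adjusted p = 6.22e-05 in edgeR).

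RTS0066003 was at 40.3, 35.0, 62.6, and 32.5 CPM in the cortical segments and at 21.4, 10.4, 22.5, and 10.6 CPM in the medullary ones. Both sections thus held 1 medullary segment near 22 CPM and 1 near 10 CPM, and none reached the cortical range. The sums gave 42.4 ± 7.31 CPM in the cortex and 13.3 ± 2.58 CPM in the medulla (SD, n = 2 sections), a log2 fold change of -1.67 (SE 0.21, adjusted p = 0.000188 in edgeR).

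**Figure D3:**
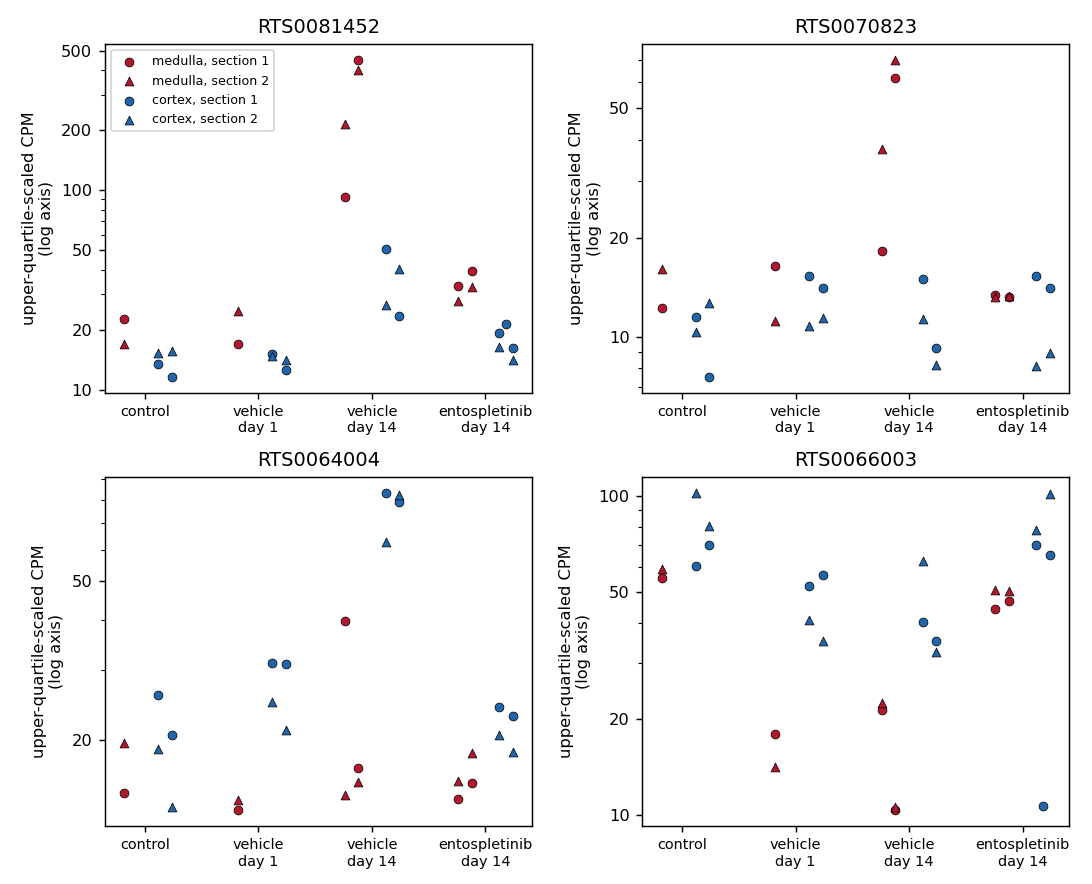
Upper-quartile-scaled CPM (log axis) of the 4 named probes in each tubule segment of 4 arms, red for medulla and blue for cortex, circles for section 1 and triangles for section 2. In the vehicle day 14 arm no red point overlaps the blue ones in any panel, which the rule that chose the probes required. An entospletinib day 14 cortical segment of 77621 counts was at 0 for RTS0070823 and RTS0064004 and is not drawn there.

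Uninjured kidneys were compared in the same way to ask whether these probes already differed between the regions without injury. Control sections held 2 medullary and 4 cortical tubular segments. In them edgeR called 0 probes (0.0%), with 814 probes or 4.03% at an unadjusted p under 0.05, and DESeq2 on the same sums called 3. Without control section 2, edgeR called 83. The 147 probes had a median log2 fold change of 0.09 in controls (0.21 and 0.00 in sections 1 and 2, and 0.06 or 0.05 with TMM or DESeq2 size factors), and 59 of them were higher in the medulla in both sections, which was 40.1% against 35.0% of all probes. The 139 probes had a median of -0.21 (-0.35 and -0.08 in the sections), and 88 of them were lower in the medulla in both sections, which was 63.3% against 22.6% of all probes. Control kidneys thus held a small difference of the same sign for the probes higher in the cortex. These control values did not enter the choice of the 2 sets beyond the shared estimate of the spread.

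The difference between medulla and cortex on vehicle day 14 differed from that in controls for 49 probes, 0.243% of those tested, at an adjusted p under 0.05 in the same model. It was higher for 41, of which 39 were among the 147, and lower for 8, all among the 139. For the 41 probes the median log2 fold change of medulla over cortex was 1.60 on vehicle day 14 and -0.01 in controls, and for the 8 it was -1.20 and 0.48. Both choices rest on the same vehicle day 14 sums, and the 49 were chosen by this difference. The overlap and these medians are thus favored by construction. RTS0081452 was at 19.7 ± 3.87 CPM in the medulla and 14.0 ± 2.03 CPM in the cortex of controls (SD, n = 2 sections), and its log2 fold changes differed by 2.97 (SE 0.26, adjusted p = 1.91e-05 in edgeR). RTS0070823 was at 14.1 and 10.5 CPM in control medulla and cortex, with a difference of 1.98 (SE 0.28, adjusted p = 0.00442 in edgeR).

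RTS0064004 was at 17.1 ± 3.43 CPM in control medulla and 19.7 ± 5.07 CPM in control cortex (SD, n = 2 sections), and its log2 fold changes differed by -2.04 (SE 0.34, adjusted p = 0.0183 in edgeR). Its medullary level on vehicle day 14 was close to both control levels, and the cortical level stood above them. RTS0066003 was at 56.8 ± 2.44 and 78.0 ± 18.0 CPM in control medulla and cortex (SD, n = 2 sections), and both regions were lower on vehicle day 14. Its difference of -1.22 did not pass (SE 0.28, adjusted p = 0.105 in edgeR). The 49 were 0 without medullary ROI 15, 12 without ROI 18, 197 without ROI 17, 29 and 211 without vehicle section 1 and 2, and 10 and 28 without control section 1 and 2, and the excess of higher probes was gone without ROI 17 (93 higher, 104 lower), vehicle section 2 (104 and 107), or control section 2 (10 and 18). Among the 6947 probes at or above 2 times the median probe count in at least 2 of the 28 sums, which a probe can reach through the group where it is high, 1 passed.

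Levels in the 2 regions were set side by side by arm. For the 147 probes the median log2 CPM was 4.20 in the medulla and 4.01 in the cortex of controls, and 6.03 and 4.61 on vehicle day 14. The 139 probes were at 7.47 and 7.78 in controls, and at 5.59 and 7.00 on vehicle day 14. Over all probes the medians were 4.63 and 4.56 in controls and 4.48 and 4.40 on vehicle day 14. In both sets the medullary level stood farther from the control level than the cortical level did. As a share of counts, the 139 probes took 5.34% and 5.95% in control medulla, 1.07% and 1.59% in the medulla on vehicle day 14, 7.64% and 6.47% in control cortex, and 5.37% and 3.84% in the cortex on vehicle day 14.

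Entospletinib-treated kidneys of the same day held 4 medullary and 5 cortical tubular segments in 2 sections. In them 37 probes were called between medulla and cortex, 0.183% of those tested, of which 22 were higher in the medulla, and 3 of the 37 were among the 286. With the other scalings the 37 became 27 (TMM) and 26 (DESeq2 size factors), and the share higher in the medulla became 48.1% and 46.2% in place of 59.5%. The 37 were 16 and 3 without section 1 and 2 of this arm and 20 without vehicle medullary ROI 18. The 147 probes had a median log2 fold change of 0.15 and the 139 a median of -0.27 with entospletinib, against 0.08 over all probes. With TMM or DESeq2 size factors these medians were 0.08 and 0.06 for the 147, -0.34 and -0.36 for the 139, and 0.00851 and -0.0114 over all probes. Median levels in medulla and cortex were 7.50 and 7.82 log2 CPM for the 139, and 4.29 and 4.12 log2 CPM for the 147.

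The region difference on day 14 differed between vehicle and entospletinib for 118 probes, 0.585% of those tested, at an adjusted p under 0.05. It was higher with vehicle for 67 (56.8%), of which 55 were among the 147, and lower for 51, of which 20 were among the 139. With TMM or DESeq2 size factors the share higher with vehicle was 72.1% and 77.9%. For the 67 the median log2 fold change of medulla over cortex was 1.52 with vehicle and 0.05 with entospletinib, and for the 51 it was -0.82 and 0.67. Of the 51, 47 were higher in the medulla than in the cortex with entospletinib, against 66.7% of all probes in that arm. The choice of the 67 and the 51 by this difference favors these medians and this count. The 118 and the 49 shared 45 probes, and both comparisons used the same vehicle sums.

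Among the named probes, RTS0081452 was at 33.0 ± 4.95 CPM in the medulla and 16.4 ± 2.03 CPM in the cortex with entospletinib (SD, n = 2 sections). This was a called difference of 1.01 (SE 0.17, adjusted p = 0.0152 in edgeR), smaller than with vehicle by 2.40 (SE 0.24, adjusted p = 0.000166 in edgeR). For RTS0070823 and RTS0064004 the fold changes with vehicle and entospletinib differed by 2.19 (adjusted p = 0.000554 in edgeR) and -1.74 (adjusted p = 0.0181 in edgeR). RTS0066003 was at 47.9 and 79.1 CPM in medulla and cortex with entospletinib, and its difference of -0.96 did not pass (adjusted p = 0.149 in edgeR). The 118 were 2 without vehicle medullary ROI 15, 16 without ROI 18, 441 without ROI 17, 25 and 388 without vehicle section 1 and 2, and 21 and 19 without entospletinib section 1 and 2, with more lower than higher without ROI 17 (168 higher, 273 lower) or vehicle section 2 (187 and 201). Among the same 6947 probes, 2 passed.

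The 286 probes were then followed through the other vehicle arms, a comparison added after the day 14 values had been seen. On vehicle day 1, 944 probes were called between medulla and cortex, 4.68% of those tested, with the medulla higher for 466 (2.31%) and the cortex for 478 (2.37%). With TMM or DESeq2 size factors the medulla was higher for 375 of 948 and 375 of 944, and with DESeq2 for 433 of 1134. Of the 139 probes higher in the cortex on day 14, 122 were also called higher in the cortex on day 1, or 87.8%. Of the 147 probes higher in the medulla, 22 were called higher in the medulla on day 1, or 15.0%. The shared 144 probes, all of the same direction, were 50.3% of the day 14 calls and 15.3% of the day 1 calls. The day 1 arm had a single medullary segment in each section, with 1863750 and 1235205 counts, and without its section 2 the 944 became 568.

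By arm, the median log2 fold change of the 139 probes was -0.21 in controls, -1.78 on vehicle day 1, -0.63 on vehicle day 7, and -1.30 on vehicle day 14. On days 1 and 7, respectively, 134 and 127 of the 139 were lower in the medulla in both sections, which was 96.4% and 91.4% against 25.0% and 49.5% of all probes. The median of the 147 probes was 0.09 in controls, 0.38 on vehicle day 1 (0.63 without its section 1), -0.01 on vehicle day 7, and 1.33 on vehicle day 14. In the entospletinib arms on days 1, 7, and 14, the medians were -0.29, -0.25, and -0.27 for the 139 and -0.07, 0.04, and 0.15 for the 147. The cortex-high set was thus also low in the medulla of the other injured vehicle arms, and the median of the medulla-high set was 0.38 or less in each arm other than vehicle day 14. Both sets were chosen by their size on vehicle day 14, so their medians in that arm are favored by construction. Those of the other arms are not, and a gap between the arms is favored in the same way.

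**Figure D4:**
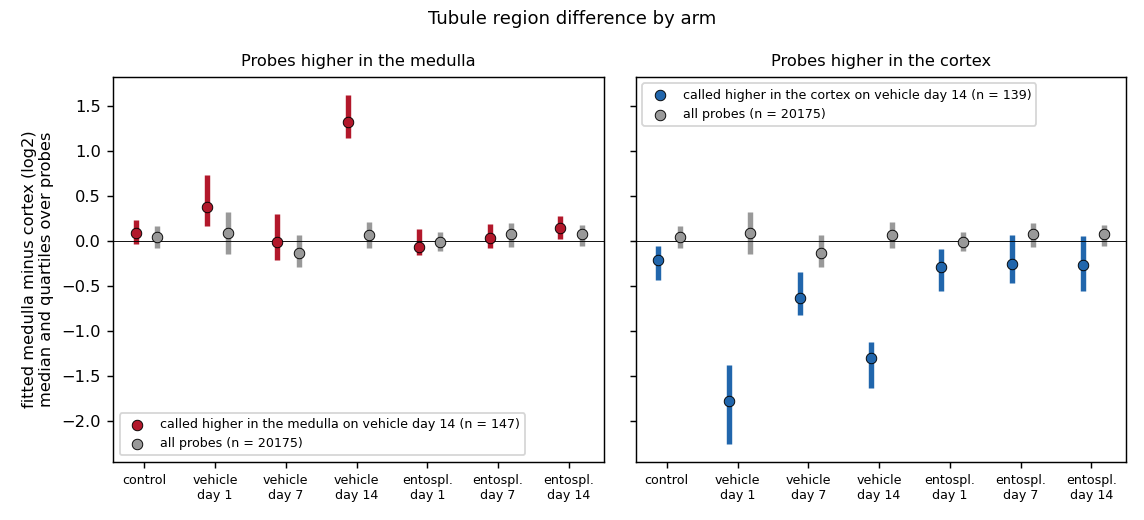
Fitted medulla minus cortex difference (log2) of the probes called with the medulla (left, red) or the cortex (right, blue) higher on vehicle day 14, in each of the 7 arms, with all 20175 probes in grey. Points are medians and bars the quartiles over probes, not errors over samples. The vehicle day 14 sums chose these probes, which favors the size of their medians in that arm. The red medians are 0.38 or less outside vehicle day 14, and the blue median is -1.78 on vehicle day 1, -0.63 on vehicle day 7, and -0.21 to -0.29 in the remaining arms.

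The region differences of vehicle days 14 and 1 were tested against each other, and 111 probes passed an adjusted p of 0.05, 0.550% of those tested. The difference was higher on day 14 for 33, of which 18 were among the 147, and lower for 78, of which 2 were among the 147 and 2 among the 139. The 78 had a median log2 fold change of 1.70 on day 1 and 0.06 on day 14. All 78 were higher in the medulla on day 1, and 74 of them belonged to neither day 14 set. The choice of these probes by the difference favors such values. RTS0081452 and RTS0070823 differed between the days by 2.85 (SE 0.28, adjusted p = 5.06e-05 in edgeR) and 2.30 (SE 0.30, adjusted p = 0.000901 in edgeR). On vehicle day 1 they were at 20.7 ± 5.45 and 13.8 ± 3.68 CPM in the medulla and 13.8 ± 0.67 and 12.8 ± 2.30 CPM in the cortex (SD, n = 2 sections).

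RTS0066003 was called on vehicle day 1 with a log2 fold change of -1.52 (SE 0.25, adjusted p = 0.000893 in edgeR), and its days differed by -0.15 (SE 0.33, adjusted p = 0.94 in edgeR). RTS0064004 was at 13.7 and 26.7 CPM in medulla and cortex on vehicle day 1, a log2 fold change of -0.98 that did not pass (SE 0.31, adjusted p = 0.0576 in edgeR). On vehicle day 7 its cortical level was 58.2 ± 4.56 CPM (SD, n = 2 sections), and its medullary level was 61.1 CPM in section 1, close to the 61.4 CPM of the cortex there, and 27.3 CPM in section 2. Its days 14 and 1 differed by -1.18, which did not pass (SE 0.40, adjusted p = 0.278 in edgeR). The 111 were 439 without vehicle day 14 medullary ROI 15, 224 and 58 without vehicle day 14 section 1 and 2, and 185 and 59 without vehicle day 1 section 1 and 2. Without vehicle day 14 section 2, more were higher (35) than lower (23).

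Macrophage segments, the IBA1-stained areas of the same ROIs, gave a readout that did not enter the choice of the probes. On vehicle day 14 there were 4 in the medulla and 4 in the cortex, with 378678 to 947255 counts each. For the 147 probes, macrophage segments of the medulla stood above those of the cortex by a median of 0.57 in section 1 and 0.81 in section 2 on the log2 scale, against 0.06 and 0.09 over all probes. The direction was the same in both sections for 140 of the 147, or 95.2% against 35.7% of all probes. The 139 probes had medians of -0.64 and -0.76, and 116 were lower in the medulla in both sections, or 83.5% against 20.4% of all probes. Both sets thus had the same sign in macrophage as in tubular segments, with a smaller median. Macrophage segments of other arms held smaller, similar, or larger differences, and no test between arms was made. The medians of the 139 were -1.09 and -1.81 in the sections of vehicle day 1 and 0.00 and -0.40 in those of controls. With entospletinib on day 14 they were -0.35 and -0.87. The medians of the 147 were 0.59 and 0.19 in the sections of controls and 0.51 and 0.49 with entospletinib on day 14, where 52.4% were higher in the medulla in both sections against 28.5% of all probes. On vehicle days 1 and 7, 92.8% and 71.9% of the 139 were lower in the medulla in both sections. Over all probes these shares were 28.4% and 26.5%. With entospletinib the share was 72.7%, 42.4%, and 70.5% on days 1, 7, and 14, against 25.2%, 20.6%, and 22.5% of all probes. In controls it was 38.8% against 18.9% of all probes. These are separate libraries, but they come from the areas next to the tubular segments.

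The sets also differed in level between the compartments in uninjured kidneys. The compartments were scaled separately, and macrophage segments of the whole series held a median of 186336 counts against 4781886 in tubular segments. The prior count of 2 therefore raises low probes more in macrophage values. Probes of matched level were not compared, so a part of level in these differences was not tested. In controls the 147 probes were higher in macrophage than in tubular segments by medians of 0.87 and 0.83 in the medulla and 0.64 and 0.75 in the cortex of sections 1 and 2. Over all probes the same medians were 0.23 and 0.20, and -0.05 and 0.24. On vehicle day 14 the 147 stood higher in macrophage segments by 1.35 and 0.89 in the cortex and by 0.38 and 0.57 in the medulla, against 0.32 and 0.45 and 0.38 and 0.47 over all probes. The 139 probes were lower in macrophage segments of controls, by medians of -0.47 and -0.60 in the medulla and -0.73 and -0.28 in the cortex. RTS0081452 was at 772 and 650 CPM in macrophage segments of the vehicle day 14 medulla, above the 412 and 323 CPM of the tubular segments of sections 1 and 2, and at 194 and 86.3 CPM in those of the cortex. The part of RNA from macrophages in the tubular result was not tested.

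**Figure D5:**
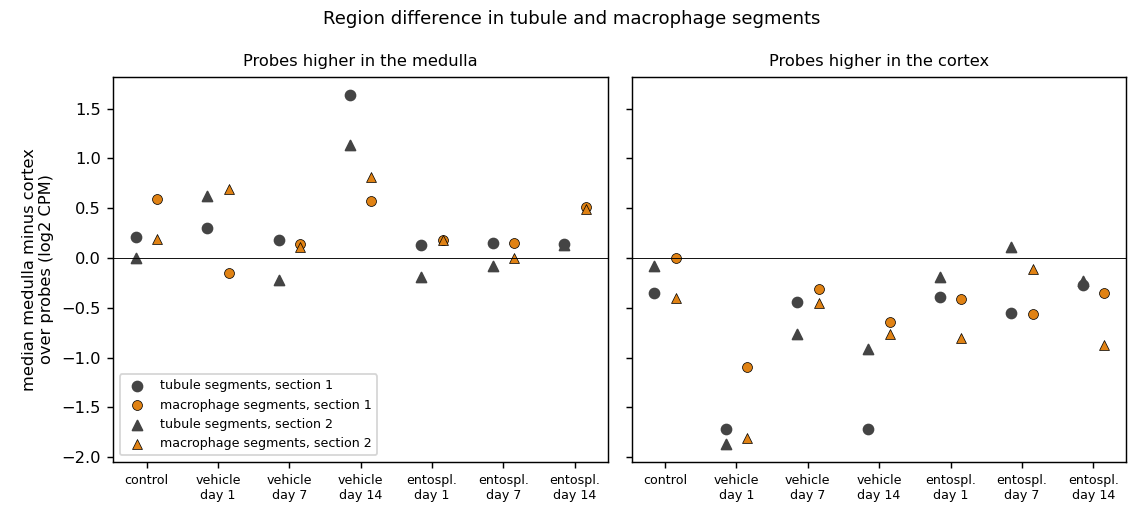
Median medulla minus cortex difference (log2 CPM) over the 147 probes higher in the medulla (left) and the 139 higher in the cortex (right) on vehicle day 14, in tubular segments (grey) and macrophage segments (orange) of each arm. Circles are section 1 and triangles section 2. On vehicle day 14 the macrophage medians are 0.57 and 0.81 on the left and -0.64 and -0.76 on the right, on the same side of 0 as the tubular medians and nearer to it. Other arms hold smaller, similar, or larger macrophage medians, such as 0.59 and 0.19 in controls on the left. On the right they are -1.09 and -1.81 on vehicle day 1 and -0.35 and -0.87 with entospletinib on day 14.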

How the data were processed

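GeoMx DSP was run by the authors on FFPE mouse kidney sections. The authors deposited whole UMI counts per probe and segment, made with the GeoMx NGS Pipeline (version 3.1.1.5 in the file headers, with other versions in the labels) and not normalized. Some of the deposited files, with the same whole counts, had to be listed under another unit for a reason of format. R 4.3.1 and build mm10 are named in the submitters' processing notes. No negative probes, probe aggregation or background subtraction could be used. All segments carry the same plate and date in the file headers.

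Tubular counts were summed per section and region (28 sums of 14 sections). The label prefix gave the section, which the labels do not state to be 1 mouse. Probes were filtered with filterByExpr (minimum count 10, minimum total 15), which kept all 20175. Sums were scaled by the upper quartile and fitted with edgeR 4.0.16 (robust quasi-likelihood, R 4.3.3) with the section as block and a region effect per arm (7 residual degrees of freedom). The SE is the absolute log2 fold change over the square root of F. The thresholds for region effects were 0.05 for the adjusted p and 1 for the size of the log2 fold change, while differences of region effects were judged by the adjusted p alone. CPM uses the scaled totals, and log2 CPM and the macrophage levels carry a prior count of 2. With 2 sections per arm no exact permutation test could pass, and p-values rest on the spread shared by the arms.

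Medulla and cortex of a section come from the same kidney, which is the pairing. The section differences in the medulla and in the cortex correlated across probes at 0.586 on vehicle day 14 and at 0.0514 to 0.586 in the 7 arms.

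Alternatives were TMM, DESeq2 size factors, DESeq2 1.42.0, limma-voom 3.58.1, filters, no block, thinning, segments as replicates, and leaving out each section or vehicle day 14 segment. The members, comparisons and alternatives were chosen with earlier results of these data known, and the vehicle day 1 comparisons were added after the data had been seen. Probes to be named were the 2 per direction with the smallest adjusted p among called probes with both sections in the same direction and no overlap of segments, with ties going to the larger fold change.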

Additional observations from a re-analysis of the deposited data

Results flagged for a closer look

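Among the 4 medullary segments of vehicle day 14, the level of RTS0064004 in ROI 14, 39.7 CPM, lay far from the others. The total of 2355614 counts in cortical ROI 13 lay far below those of the other 3 cortical segments. In all, 14 groups of 4 segments were examined and 2 had such a value. No excess over chance is read from this count.

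The region difference of vehicle day 14 differed from that of controls for 49 probes, from that of entospletinib day 14 for 118, and from that of vehicle day 1 for 111, by the test of the difference itself. Against controls the named probes that passed were RTS0081452 (2.97 on the log2 scale), RTS0070823 (1.98), and RTS0064004 (-2.04). Against entospletinib day 14 the same probes passed with 2.40, 2.19, and -1.74. Against vehicle day 1 RTS0081452 and RTS0070823 passed with 2.85 and 2.30. These comparisons share the vehicle day 14 sums. The cause of these differences was not tested.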

How the results depend on the processing

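The 286 probes called on vehicle day 14 ranged from 72 to 581 with a segment or section left out, and were 156 with segments thinned to the lowest total of their section and region and 181 in an edgeR fit of the 8 segments alone (292 with DESeq2 and 381 with limma-voom on these segments). Of 22 alternatives, 16 gave a count within 1.5 times of 286, which does not mean the same probes. On the 8 segments alone, 84 of the 181 (edgeR), 135 of the 292 (DESeq2), and 184 of the 381 (limma-voom) were among the 286. With TMM this held for 270 of 277, and with DESeq2 on the sums for 283 of 420. The cortex was higher for 100 of the 181, 190 of the 292, 241 of the 381, and 245 of the 420. With TMM it was higher for 136 of the 277, and with thinned segments for 61 of the 156. Without the replicate block of sections, 200 were called (139 higher in the medulla and 61 in the cortex), of which 179 were among the 286. Leaving out a section or segment gave 0 to 83 calls in controls, 3 to 53 with entospletinib on day 14, and 568 to 964 on vehicle day 1. For differences from controls, entospletinib day 14, and vehicle day 1, it gave 0 to 211, 2 to 441, and 58 to 439, and the 0, without medullary ROI 15, came with 754 probes at an unadjusted p under 0.05 in edgeR. In the same order, the 49, 118, and 111 became 111, 236, and 214 with DESeq2, 11, 12, and 55 without the replicate block, 15, 17, and 307 with thinned segments, 116, 964, and 914 with segments as replicates, and 1, 2, and 25 among probes at 2 times the median count in at least 2 sums. Entospletinib day 14 had 236 calls with DESeq2, 444 with segments as replicates, 1 without the block, and 0 among probes at 2 times the median count (edgeR, 1289 at an unadjusted p under 0.05). Controls had 3 with DESeq2 and 7 with segments as replicates. The log2 fold changes of the 4 named probes kept their sign in all 22 alternatives, and in the edgeR fit of the 8 segments alone RTS0081452 (3.07) and RTS0066003 (-1.58) no longer passed, while both passed with DESeq2 and limma-voom on these segments. The cause was not tested.

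ROI 14 held 588814 counts, which limits what it shows of low probes. The main fit had the section as block and 2 sections per arm. Its p-values thus measure how the difference between medulla and cortex varied between the sections of an arm, a spread shared by the arms. A section left out leaves 1 sum that is assumed to vary like the others.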
